A study of Drosophila melanogaster with 9 samples.

Results

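Whole testes of y w flies, which carry the yellow and white marker mutations, were compared with whole testes of bam and bgcn mutants, by the share of small RNA reads that each transposon and each piRNA cluster took. The members described here are the features whose share in y w lay above, or below, both mutant libraries: 80 of 117 transposons and 68 of 99 clusters. The positions of these shares chose the members, so they are given as a description. Even a library interchangeable with bam and bgcn would lie outside both for most features, so these counts do not set y w apart. The test across all features is given beside the positions.

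PIWI-interacting RNAs (piRNAs) are small RNAs of the animal gonad that guide PIWI proteins to transposon transcripts. Most are cut from long transcripts of piRNA clusters, loci rich in transposon fragments and often next to centromeres, and in germ cells the proteins Aub and Ago3 amplify them in pairs. In the fly testis the germline runs through stem cells, dividing spermatogonia, spermatocytes and spermatids, with somatic cyst and hub cells around it, and somatic and germline cells make different sets of piRNAs.

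The y w testes held all germline stages, which the labels give as gonioblasts to mature sperms. In bam and bgcn mutants germ cells keep dividing as spermatogonia, and the labels describe the cells of both as early, mitotically dividing germ cells. Values from 4 further libraries stand beside some results. The aub/CyO and ago3/TM6 heterozygotes gave whole testes with all stages, and the can and sa mutants gave testes without apical tips, labelled as primary spermatocytes. Each genotype has 1 library, and bam and bgcn are grouped as the spermatogonia libraries, so the spread between them also holds their difference in genotype. Nothing in the labels says how many animals a library holds. The y w stock differs from the mutants in germline stage, in the mix of somatic and germline cells and in genetic background, and these cannot be told apart. Fewer cells of a type and less RNA per cell cannot be told apart either. The tables hold no mRNA, so the labelled cell types were not checked against marker genes.

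Transposon-mapping reads numbered 356879 in y w, against 438755 in bam and 580459 in bgcn. Cluster-mapping reads numbered 18371 in y w, against 20920 in bam and 32654 in bgcn. The intervals below are 95% exact binomial (Clopper-Pearson) intervals of a share, and they cover counting error only. The cluster tables held 5.15% as many reads as the transposon table in y w, against 4.77% in bam and 5.63% in bgcn, so the y w value lay between the spermatogonia libraries.

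Transposon reads were spread less evenly over the elements in y w than in either spermatogonia library. The 5 largest elements took 38% of transposon-mapping reads in y w, against 23.8% in bam and 24.1% in bgcn. In y w these were 1360, opus, baggins, Dsim-ninja and copia, while Doc, 1360, roo, F-element and mdg3 led in bam, and 1360, copia, roo, mdg3 and GATE led in bgcn. It took 9 elements to reach 50% of the reads in y w, against 15 in bam and 17 in bgcn. The spermatocyte libraries were also less even than bam and bgcn. Their 5 largest elements took 45.3% in can and 35.1% in sa, and 6 and 10 elements reached 50%. Clusters did not show this order: the 5 largest clusters took 51.5% of cluster-mapping reads in y w, against 48.5% in bam and 66.3% in bgcn.

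**Figure D1:**
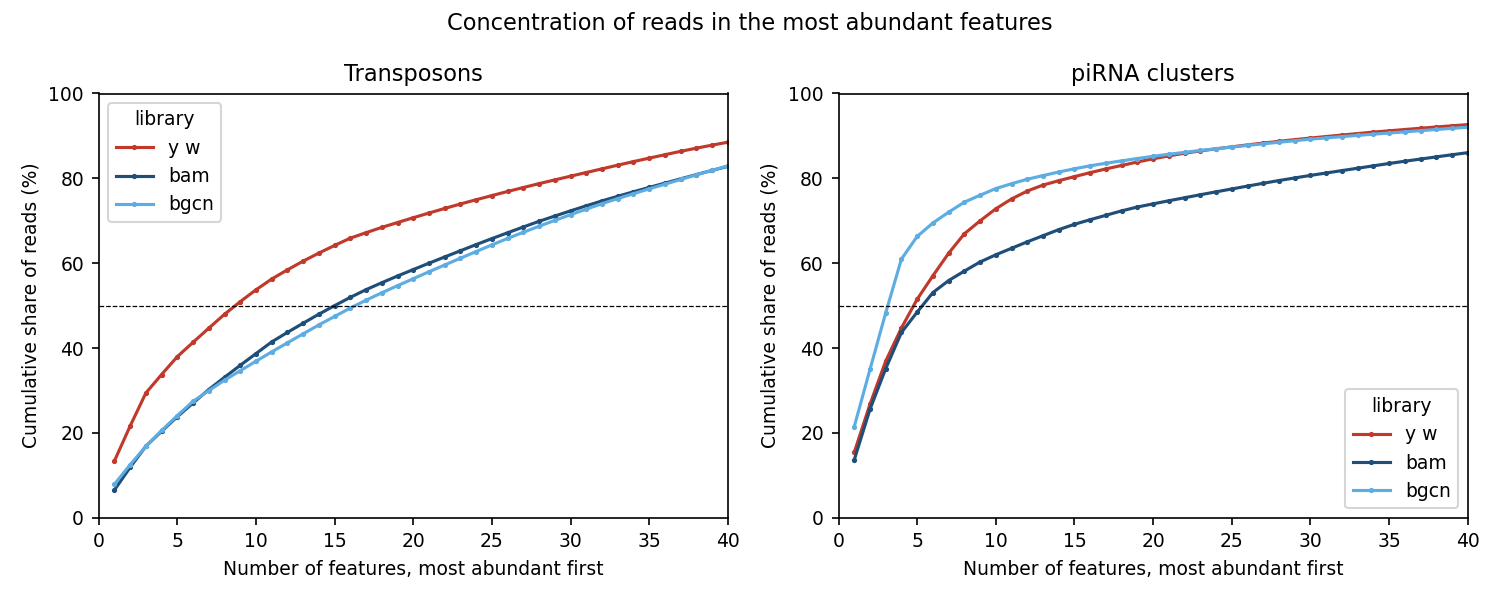
Cumulative share of reads (%, y axis) over the most abundant features (x axis, number of features), for transposons on the left and piRNA clusters on the right, 1 line per library. The dashed line marks 50% of the reads, which the y w transposon curve reaches at 9 elements, against 15 in bam and 17 in bgcn.

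By share, y w lay above both spermatogonia libraries for 22 transposons (18.8% of the 117), below both for 58 (49.6%) and between them for 37. The 22 elements above together took 50.4% of the reads in y w, against 14.2% in bam and 22.1% in bgcn. The 58 below took 29.8% in y w, against 64.8% in bam and 55.5% in bgcn. The rule that chose these elements fixed the direction of both gaps. Shares in a library add up to 100%, so a few abundant elements that are high in y w lower the shares of all others there. Under TMM scaling, which sets libraries level on the bulk of the elements, 39 elements lay above both and 38 below both, and under the authors' normalised signal 24 lay above and 53 below. All 22 elements above by share were also above on both of these scales, while 38 of the 58 elements below were below on all 3. The first count was in effect fixed in advance on both scales. Against shares, the authors' factors raise y w relative to bam and lower it only slightly relative to bgcn. TMM scaling goes further. The TMM factor was 0.889 in y w, against 1.22 in bam and 1.27 in bgcn, which raises y w relative to both. Over all 117 elements the log2 fold change, y w over spermatogonia, had a median of -0.09 with TMM scaling and -0.57 with library totals.

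Many positions rest on small gaps. The y w share was at least 2-fold from the nearer spermatogonia library for 10 of the 22 elements above and 26 of the 58 below. The gap to the nearer library was wider than the gap between bam and bgcn for 15 elements above and 38 below, and the counting intervals were apart from both for 19 and 42. The median size of the log2 ratio of shares was 1.07 for y w over bam and 0.97 for y w over bgcn, against 0.72 for bgcn over bam. At the edge of the rule, Fw3 lay just inside, at 1.08 times the higher spermatogonia share, and micropia just outside, at 0.972 times. Max-element lay just inside on the lower side, at 0.997 times the lower spermatogonia share, and gypsy12 just outside, at 1.01 times.

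**Figure D2:**
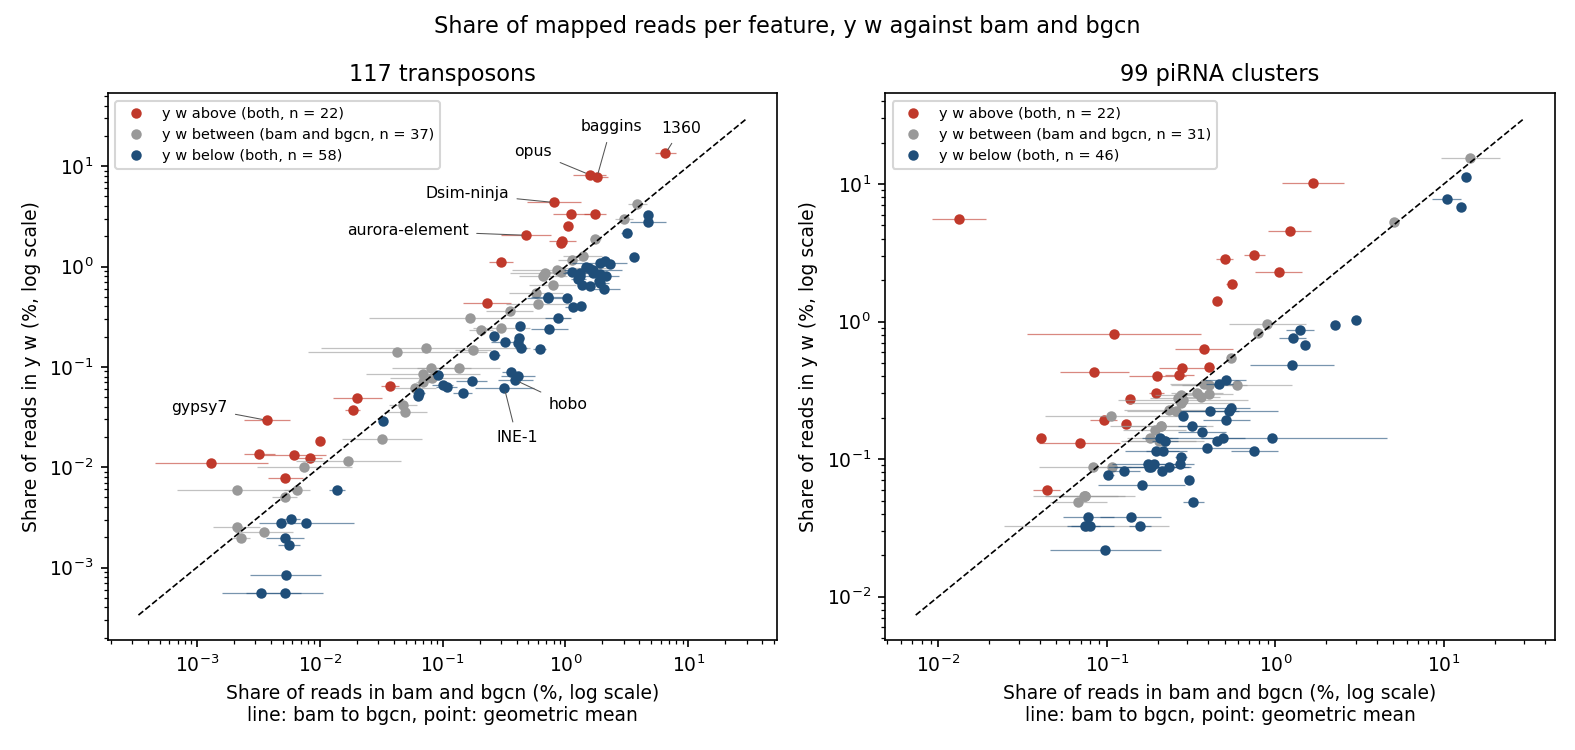
Share of reads per feature in y w (y axis, %, log scale) against the share in bam and bgcn (x axis, %, log scale; the line runs from one to the other and the point is their geometric mean), for 117 transposons and 99 clusters. Red points are the 22 elements and 22 clusters above both, blue points the 58 elements and 46 clusters below both, and the dashed line marks equal shares.

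The test across all elements called 4 elements higher in y w (3.42% of the 117) and 0 lower (0.0%): opus, Dsim-ninja, baggins and aurora-element. The test was edgeR's quasi-likelihood test on the reads of y w, bam, bgcn, can and sa, with a Benjamini-Hochberg adjusted p below 0.05. Since y w is 1 library, it was assumed to vary like the other genotypes. At an unadjusted p below 0.05, edgeR gave 11 elements higher and 0 lower, while DESeq2 called 0 after adjustment and 9 higher and 3 lower before it.

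The element opus, a retrotransposon of the gypsy family with long terminal repeats (LTRs), had 29370 reads in y w, against 5044 in bam and 12428 in bgcn. It took 8.23% (8.14 to 8.32) of the transposon reads in y w, against 1.15% (1.12 to 1.18) in bam and 2.14% (2.10 to 2.18) in bgcn. The y w share was 3.84 times that of bgcn and 7.16 times that of bam, while the spermatogonia libraries differed by 1.86 times. The log2 fold change was 2.81 (SE 0.62, edgeR adjusted p = 0.00114).

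The non-LTR retrotransposon baggins, which copies itself through an RNA as LINE elements do, took 7.79% of the reads in y w, against 1.46% in bam and 2.23% in bgcn. Its y w share was 3.49 times that of bgcn and 5.33 times that of bam, and its log2 fold change was 2.56 (SE 0.62, edgeR adjusted p = 0.00177).

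Dsim-ninja, an LTR retrotransposon of the BEL/Pao group named from Drosophila simulans, took 4.35% in y w, against 0.486% in bam and 1.35% in bgcn. Its log2 fold change was 2.74 (SE 0.63, edgeR adjusted p = 0.00121). Its D. melanogaster relative aurora-element took 2.05% in y w, against 0.297% in bam and 0.762% in bgcn, and its log2 fold change was 2.45 (SE 0.67, edgeR adjusted p = 0.0103). The bgcn share was 2.77 times the bam share for Dsim-ninja and 2.56 times for aurora-element, so the spermatogonia libraries stood well apart, and the y w share lay above both. No source used here states how reads that match several elements were handled, so these 2 relatives may share reads and are not counted as independent.

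These calls depended on the scaling, on the tool and on the can library. With the authors' factors in place of TMM the edgeR adjusted p was 0.0962 for opus, Dsim-ninja and baggins and 0.387 for aurora-element. DESeq2 gave adjusted p-values of 0.107 for opus, 0.137 for baggins, 0.2 for Dsim-ninja and 0.294 for aurora-element. Without the can library, which the fit uses for the spread and the scaling, all 4 calls were lost, with edgeR adjusted p-values of 0.0516 to 0.104. Without bam or with library totals only aurora-element was lost, at edgeR adjusted p-values of 0.21 and 0.247. All 4 fold changes stayed positive under every alternative run, from 1.94 to 3.61 on the log2 scale. For opus the adjusted p ranged over the alternatives from 7.66e-06 without bgcn to 0.107, and for aurora-element from 0.00149 to 0.387.

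Other abundant elements had their highest share of the 3 libraries in y w without passing the test. The DNA transposon 1360, also called hoppel, whose sequences are found in the Suppressor of Stellate repeats that yield abundant testis piRNAs, led the y w library. It took 13.4% in y w, against 5.35% in bam and 7.91% in bgcn (log2 fold change 1.5, SE 0.58, edgeR adjusted p = 0.17). R1A1-element, which inserts into the genes for ribosomal RNA, took 3.34% in y w, against 0.787% in bam and 1.57% in bgcn (log2 fold change 2.00, SE 0.66, edgeR adjusted p = 0.0682). Without the bgcn library, edgeR called both 1360 and R1A1-element higher, at adjusted p-values of 0.00239 and 0.0128, where the highest over the alternatives were 0.722 and 0.641. The other ribosomal DNA element, R2-element, had 6 reads in y w, against 20 in bam and 40 in bgcn, and its y w interval overlapped that of bam.

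The LINE-like elements G-element and G2 are close relatives and lay above both as well. G-element took 1.11% in y w, against 0.240% in bam and 0.377% in bgcn, and G2 took 2.54% in y w, against 0.952% in bam and 1.14% in bgcn. Their log2 fold changes were 2.33 (SE 0.85) and 1.76 (SE 0.69), with edgeR adjusted p-values of 0.127 and 0.172. Among scarce elements, the LTR element gypsy7 had 105 reads in y w, against 25 in bam and 14 in bgcn, a log2 fold change of 3.33 with a wide error (SE 1.35, edgeR adjusted p = 0.184). The remaining 13 elements above both ranged in y w share from 0.00785% (Fw3) to 3.37% (invader3), and 6 of all 22 had under 100 reads in y w.

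**Figure D3:**
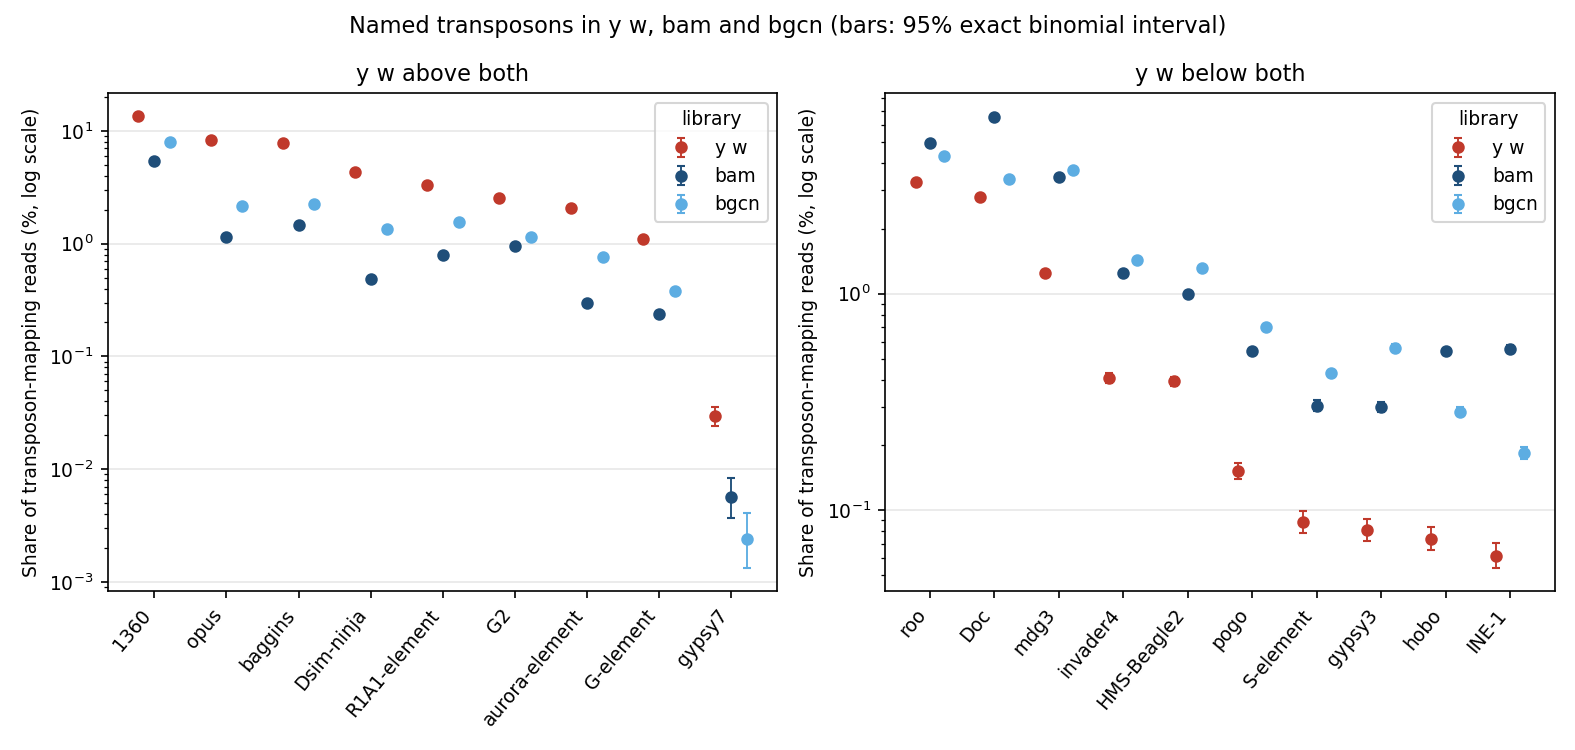
Share of transposon-mapping reads (y axis, %, log scale) in y w, bam and bgcn for the named elements above both (left) and below both (right), with 95% exact binomial intervals as bars, most of them smaller than the points. In the left panel y w is the highest of the 3 libraries for each element, as for opus at 8.23% in y w, against 1.15% in bam and 2.14% in bgcn, and in the right panel it is the lowest.

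No element was called lower in y w, and the lowest edgeR adjusted p among the named elements below both was 0.524. Among elements with at least 100 reads over the 3 libraries, hobo, a DNA transposon of the hAT group, had the smallest ratio to the lower spermatogonia share, 0.259. It had 263 reads in y w, against 2375 in bam and 1649 in bgcn, or 0.0737% in y w, against 0.541% in bam and 0.284% in bgcn (log2 fold change -2.01, SE 1.08, edgeR adjusted p = 0.524). The cut-and-paste DNA transposons pogo and S-element lay in the same position: pogo with 0.151% in y w, against 0.542% in bam and 0.699% in bgcn, and S-element with 0.0883% in y w, against 0.304% in bam and 0.429% in bgcn. INE-1, a short and degenerate repeat present in many copies, took 0.0616% in y w, against 0.554% in bam and 0.183% in bgcn. Its y w share was 0.336 times that of bgcn, and its bgcn share 0.331 times that of bam, so the gap below both was no wider than the gap between the spermatogonia libraries.

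The LTR elements gypsy3, invader4, mdg3 and HMS-Beagle2, all of the gypsy family, were among the named elements below both. The most abundant, mdg3, took 1.24% in y w, against 3.46% in bam and 3.73% in bgcn, a gap wide beside that between the spermatogonia libraries (log2 fold change -1.05, SE 0.75, edgeR adjusted p = 0.828). invader4 took 0.409% in y w, against 1.25% in bam and 1.43% in bgcn, and HMS-Beagle2 took 0.393% in y w, against 1.00% in bam and 1.31% in bgcn. gypsy3 took 0.081% in y w, against 0.299% in bam and 0.563% in bgcn. For these 4 elements y w was the lowest of the 3 libraries on all 3 scales. HMS-Beagle2 and its relative HMS-Beagle may share reads. Over all 58 elements below both, y w shares ran from 0.00056% (looper1) to 3.27% (roo), with under 100 reads in y w for 9.

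Doc and roo, among the most abundant elements of spermatogonia, lay below both by share and by the authors' signal but not with TMM scaling. The LINE-like element Doc took 2.79% in y w, against 6.54% in bam and 3.38% in bgcn, and the BEL/Pao element roo took 3.27% in y w, against 4.98% in bam and 4.34% in bgcn. With TMM scaling both lay between bam and bgcn, with log2 fold changes of -0.36 (SE 0.68) for Doc and -0.03 (SE 0.66) for roo. The LTR element copia took 4.22% in y w, against 3.21% in bam and 4.61% in bgcn, and lay between them by share and above both with TMM scaling.

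By class, the gypsy family took a smaller summed share in y w than in both spermatogonia libraries. The summed shares of the BEL/Pao, LINE-like and DNA elements were larger, and each of these gaps rests on a few abundant elements named above. The 45 gypsy family elements took 36.4% of the reads in y w, against 47.6% in bam and 47.1% in bgcn, with 8 above both, 29 below and 8 between. Their median log2 fold change was -0.21, against -0.09 over all 117 elements, and 1 of them (opus) was called higher. Of their 45 positions, 13 were above and 20 below with TMM scaling. By share 18.8% of all 117 elements lay above both and 49.6% below, and with TMM scaling 39 lay above and 38 below.

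The 8 BEL/Pao elements, Dsim-ninja included, took 13.3% in y w, against 10.6% in bam and 9.79% in bgcn. Of these, 4 lay above both (Dsim-ninja, aurora-element, diver2 and rooA), 3 below and 1 between, with a median log2 fold change of 0.60. The larger sum rests on Dsim-ninja and aurora-element, whose shares are given above. The 34 LINE-like elements took 27.6% in y w, against 23.2% in bam and 22.3% in bgcn, with 6 above, 9 below and 19 between and a median of 0.18. Among them baggins alone took 7.79% in y w, against 1.46% in bam and 2.23% in bgcn, a gap wider than that of the whole class. The 14 DNA transposons took 16.3% in y w, against 11.2% in bam and 12.4% in bgcn, and 13.4% of reads in y w were those of 1360 alone. In this class 2 elements lay above both (1360 and FB), 8 below and 4 between, with a median of -0.11. The 3 copia family elements took 6.15% in y w, against 6.57% in bam and 7.77% in bgcn. The 13 elements of no list took 0.324% in y w, against 0.813% in bam and 0.624% in bgcn. Over all 117 elements 22 lay above both and 58 below by share, and 39 above and 38 below with TMM scaling. The balance also turned with TMM scaling for 3 of these classes, so the turn is not particular to them. There 6 DNA transposons lay above both and 4 below, 10 LINE-like elements above and 5 below, and 2 copia family elements above and 1 below. By share 0 copia family elements lay above and 1 below.

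Somatic cells of the gonad have a piRNA pathway of their own, studied mostly in ovarian follicle cells, where the flamenco cluster silences gypsy, ZAM, Idefix and related elements. The 12 elements listed as somatic-type took 7.80% of transposon reads in y w, against 12.9% in bam and 11.2% in bgcn. By share 9 of the 12 lay below both and 2 between, with Stalker2 above at 1.80% in y w, against 0.737% in bam and 1.21% in bgcn. Over all 117 elements 49.6% lay below both by share. With TMM scaling 5 of the 12 lay below, 4 above and 3 between, where 38 of all 117 lay below and 39 above, and ZAM moved from below to above. Their median log2 fold change was -0.38, against -0.09 over all elements, and none was called by edgeR in either direction. The amount of somatic tissue in each testis was not measured, and its part in these values was not tested.

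**Figure D4:**
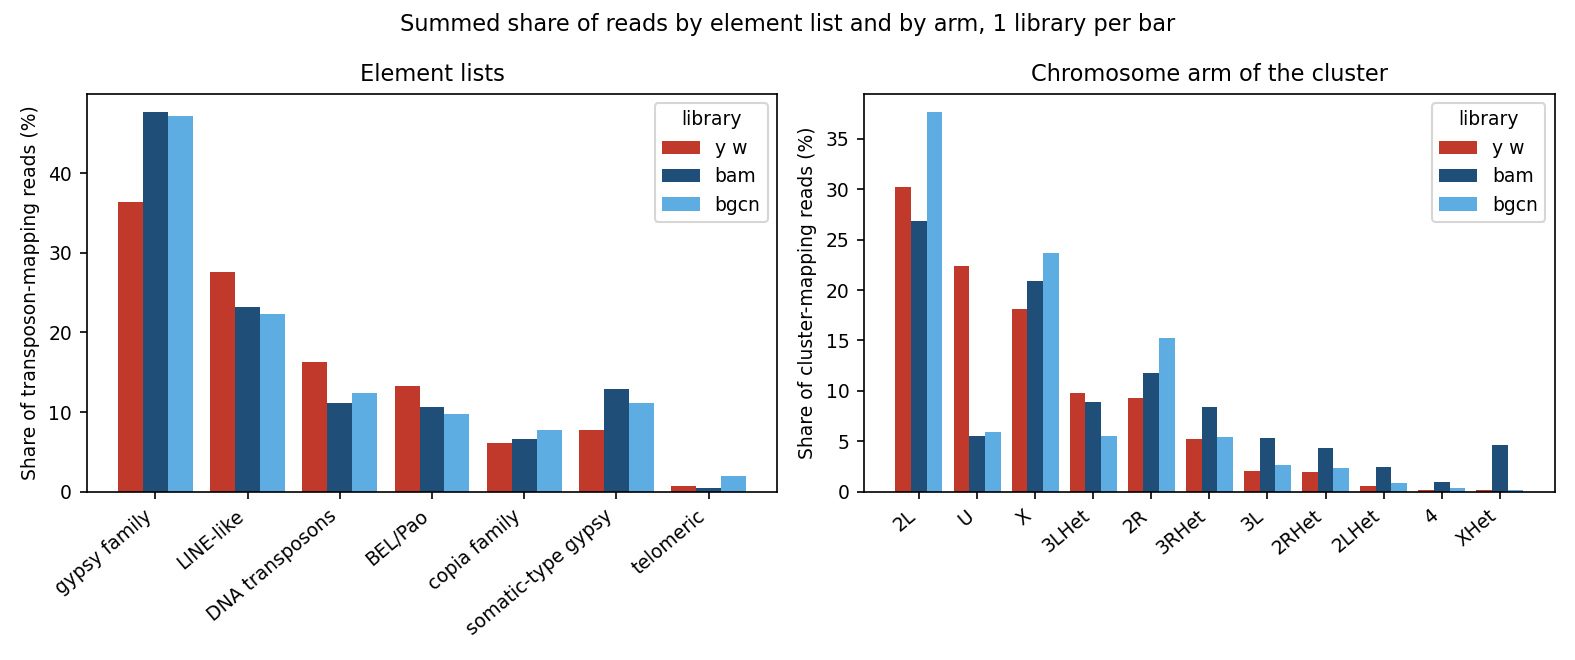
Summed share of transposon-mapping reads by element list (left) and of cluster-mapping reads by the arm on which the table places the cluster (right), in %, with 1 bar each for y w, bam and bgcn. Gypsy family elements took 36.4% in y w, against 47.6% in bam and 47.1% in bgcn, and clusters on the unplaced contigs named U took 22.4% in y w, against 5.56% in bam and 5.96% in bgcn.

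The telomeric retrotransposons HeT-A, TART-A, TART-B, TART-C and TAHRE, which maintain fly chromosome ends in place of telomerase, all lay between bam and bgcn in y w. Together they took 0.761% in y w, against 0.417% in bam and 2.03% in bgcn. The spread between the spermatogonia libraries was widest, as a ratio, for TART-C (50.1 times), which took 0.156% in y w, against 0.0103% in bam and 0.513% in bgcn. Since y w lay between bam and bgcn for each of these elements, its distance from either library was smaller than their spread by definition. The log2 fold changes of this class ran from -0.62 to 0.10 with SEs of 0.92 to 1.42.

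The other whole-testis libraries and the spermatocyte libraries give values for the same elements. They are shares over the 86 elements that a combined table of the heterozygotes also lists, and because that table was normalised apart from the others no test was made. The heterozygotes had 83953 (aub) and 102700 (ago3) reads over these elements. For opus the share was 8.27% in y w, 10.7% in the aub heterozygote, 5.93% in the ago3 heterozygote, 6.58% in can and 7.87% in sa, against 1.16% in bam and 2.16% in bgcn. For Dsim-ninja it was 4.38% in y w, 5.37% and 3.59% in the aub and ago3 heterozygotes, 9.48% in can and 5.67% in sa, against 0.489% in bam and 1.36% in bgcn. Among these 7 libraries, bam and bgcn were the lowest for both elements.

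The same libraries gave baggins 7.83% in y w, 5.63% and 7.45% in the aub and ago3 heterozygotes, 6.65% in can and 9.37% in sa, against 1.47% in bam and 2.25% in bgcn. For aurora-element the share was 2.06% in y w, 2.74% and 1.43% in the heterozygotes, 5.22% in can and 2.58% in sa, against 0.299% in bam and 0.767% in bgcn. For aurora-element the y w share lay between those of the heterozygotes, and for baggins it lay above them. For 1360 the share was 13.5% in y w, 16.5% and 19.2% in the aub and ago3 heterozygotes and 8.33% in sa, against 5.38% in bam and 7.97% in bgcn. The can share of 1360 lay between those of the heterozygotes, and was 17.5% when taken over all 117 elements. G-element varied among whole testes, with 1.12% in y w, 0.324% in the aub heterozygote and 1.41% in the ago3 heterozygote, against 0.242% in bam and 0.380% in bgcn. The LTR element invader3, named here after its values were seen, was high in y w alone. It had 3.39% in y w, 1.69% and 0.773% in the aub and ago3 heterozygotes, 1.45% in can and 1.80% in sa, against 1.42% in bam and 2.14% in bgcn.

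Among the named elements with y w below both, INE-1 had 0.0620% in y w, 0.0691% and 0.0604% in the aub and ago3 heterozygotes, 0.0688% in can and 0.0333% in sa, against 0.557% in bam and 0.185% in bgcn. For hobo the share was 0.0741% in y w, 0.309% and 0.503% in the aub and ago3 heterozygotes, 0.300% in can and 0.978% in sa, against 0.544% in bam and 0.286% in bgcn. The y w library was thus the lowest of all 7 for hobo, and both heterozygotes lay between bam and bgcn. Both heterozygotes lay between them for roo too. For mdg3, invader4, pogo, S-element and Doc both lay below bam and bgcn, and for gypsy3 only the aub heterozygote did. The can share lay between bam and bgcn for pogo (0.652%) and S-element (0.325%). The aub and ago3 heterozygotes are whole testes of all stages too, by their labels. Comparisons that use bam and bgcn share those libraries, so the values are set side by side only.

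**Figure D5:**
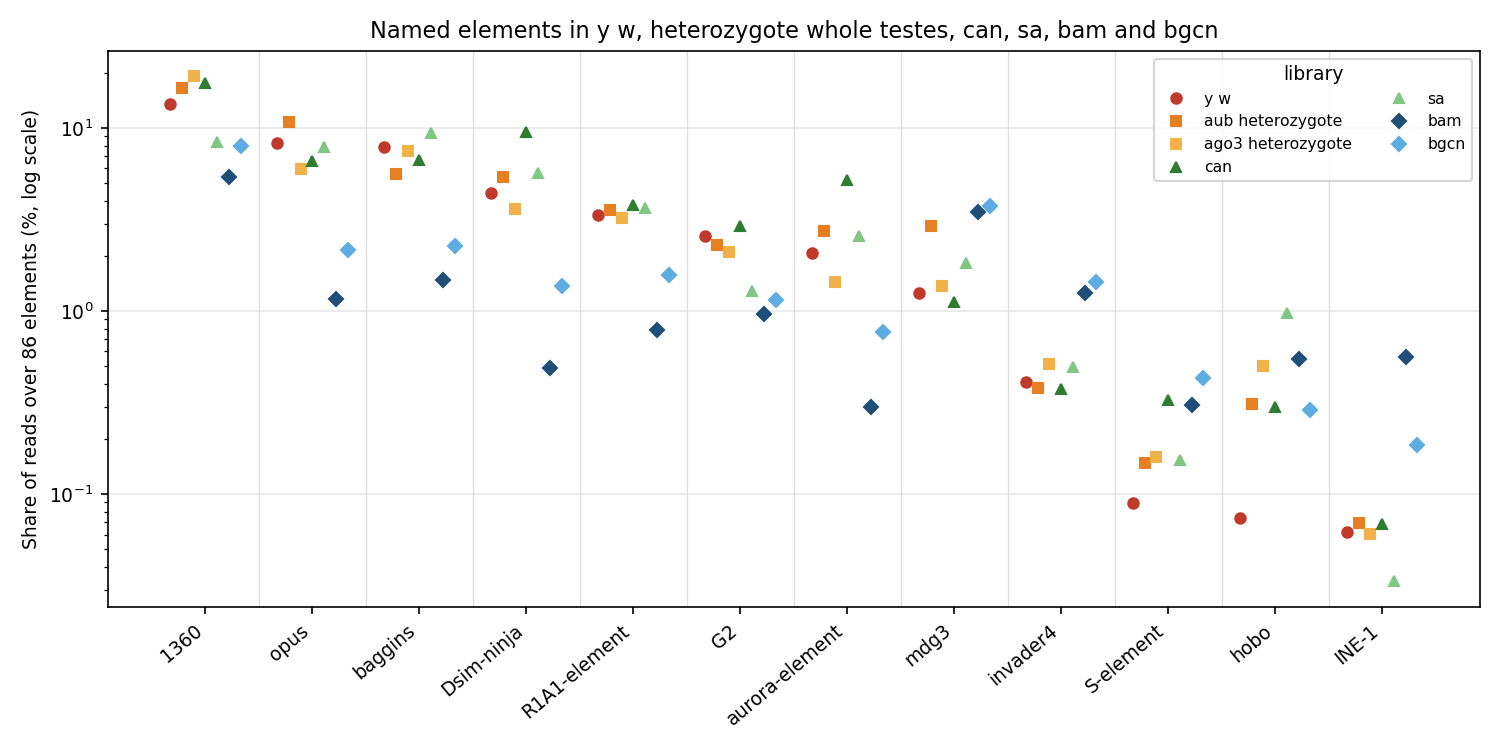
Share of reads over the 86 shared elements (y axis, %, log scale) for named elements (x axis) in y w, the aub and ago3 heterozygotes, can, sa, bam and bgcn, 1 point per library. For opus, baggins, Dsim-ninja and aurora-element, bam and bgcn are the lowest 2 of the 7 libraries, and for INE-1 they are the highest 2.

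Clusters are given by the arm, start and end in the deposited tables. No source used here states the genome build, and 61 of the 99 clusters are placed on arms such as U and 3LHet that are absent from the annotation at hand, so overlaps with genes were not read. By share, y w lay above both spermatogonia libraries for 22 clusters (22.2% of the 99), below both for 46 (46.5%) and between them for 31. The 22 clusters above took 36.6% of cluster reads in y w, against 8.46% in bam and 9.7% in bgcn, and the 46 below took 35.3% in y w, against 64.2% in bam and 57.8% in bgcn. Here too the rule fixed the direction of both gaps. With TMM scaling 35 lay above and 36 below, and with the authors' signal 23 above and 51 below. The y w share was at least 2-fold from the nearer library for 10 clusters above and 15 below. The spread between bam and bgcn was of the same order: the median size of the log2 ratio of shares was 1.17 for y w over bam and 0.76 for y w over bgcn, against 0.92 for bgcn over bam. Counts were low, with under 100 reads in y w for 12 of the 22 clusters above and 38 of the 46 below. The median length was 48.0 kb for clusters above, 34.1 kb for those below and 37.4 kb for those between.

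The cluster that passed the test was U:8795936-8797237, a stretch of 1302 bp on the unplaced contigs named U. It had 1016 reads in y w, against 4 in bam and 3 in bgcn, or 5.53% (5.20 to 5.87) of cluster reads in y w, against 0.0191% (0.00521 to 0.0489) in bam and 0.00919% (0.00189 to 0.0268) in bgcn. The ratio of shares was 289 over bam (113 to 1060) and 602 over bgcn (205 to 2920). The log2 fold change was 9.11 (SE 1.44, edgeR adjusted p = 1.69e-07). This was 1 cluster called higher (1.01% of the 99) and 0 lower (0.0%), where an unadjusted edgeR p below 0.05 gave 10 higher and 3 lower. DESeq2 called the same cluster and no other, with 8 higher and 3 lower before adjustment. Its share was 2.05% in can and 5.18% in sa, so its share was above 2% in y w, can and sa. No cluster values of the heterozygotes were used. In fits without can, without sa or on y w, bam and bgcn alone the edgeR adjusted p was 0.148, 0.125 and 0.106, while the log2 fold change stayed at 9.12 or above. Over all alternatives the adjusted p ranged from 8.34e-15 with DESeq2 to 0.148.

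Clusters on U held 22.4% of cluster reads in y w, against 5.56% in bam and 5.96% in bgcn. The sum was also high in the spermatocyte libraries, at 23.6% in can and 18.5% in sa. Of the 17 clusters there, 7 lay above both and 8 below, where 22.2% of all 99 clusters lay above and 46.5% below. Much of the sum in y w was held by U:3113117-3137249, at 10.2%, and U:8795936-8797237, at 5.53%. The largest of them in y w was U:3113117-3137249, with 1866 reads in y w, against 227 in bam and 832 in bgcn. Its share was 13.4% in can and 8.12% in sa. It took 10.2% in y w, against 1.09% in bam and 2.55% in bgcn (log2 fold change 2.74, SE 1.35, edgeR adjusted p = 0.341), and it was called higher with library totals, at an edgeR adjusted p of 0.0482, the lowest of a range up to 0.596. Further clusters on U had their highest share of the 3 libraries in y w: U:964336-1041768 with 2.84% in y w, against 0.559% in bam and 0.447% in bgcn, U:4179317-4183670 with 1.40% in y w, against 0.425% in bam and 0.481% in bgcn, and U:7209933-7212604 with 0.430% in y w, against 0.0526% in bam and 0.135% in bgcn. Their edgeR adjusted p-values were 0.0693, 0.341 and 0.0536.

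No other arm showed a gap of that size above both. By share 22.2% of all 99 clusters lay above both and 46.5% below, and with TMM scaling 35 lay above and 36 below. Clusters on 3LHet took 9.77% in y w, against 8.91% in bam and 5.53% in bgcn, with 4 of 13 above both and 2 below. Clusters on 3L took 2.03% in y w, against 5.35% in bam and 2.68% in bgcn, with 0 of 11 above and 5 below by share and 4 above and 5 below with TMM scaling. Both clusters on chromosome 4 lay below, at 0.212% in sum in y w, against 0.918% in bam and 0.416% in bgcn. They had 35 and 4 reads in y w. For the scarcer, 4:824220-865373, the y w interval of 0.00593% to 0.0557% overlapped that of bgcn, 0.0257% to 0.0758%.

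Adjoining clusters could take opposite positions. U:964336-1041768 lies 99 bp from U:923516-964236, which took 0.136% in y w, against 0.464% in bam and 0.441% in bgcn, so y w was the highest library for one and the lowest for the other. In none of the 5 pairs of clusters 99 bp apart did y w lie above both spermatogonia libraries, or below both, for both members. In 1 pair, on 3LHet, y w lay between bam and bgcn for both members.

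Outside U, the clusters with the largest ratios above both lay on heterochromatic contigs or in the part of an arm next to the centromere. 3LHet:356904-406827 took 3.05% in y w, against 0.650% in bam and 0.864% in bgcn, and 2L:22489509-22556902 took 1.87% in y w, against 0.511% in bam and 0.594% in bgcn. X:21759393-21844063 took 4.58% in y w, against 0.908% in bam and 1.63% in bgcn. It lies 74.9 kb from the cluster at the location of flamenco, where y w was the lowest library. The edgeR adjusted p-values of these 3 were 0.341, 0.341 and 0.36.

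By share, the large clusters known from ovaries lay between or below the spermatogonia libraries in y w. The flamenco location, X:21505666-21684449, took 6.77% (6.41 to 7.14) in y w, against 11.9% (11.5 to 12.4) in bam and 13.3% (13.0 to 13.7) in bgcn. The dual-strand germline cluster at 42AB, 2R:2144349-2386719, took 7.82% in y w, against 8.52% in bam and 12.7% in bgcn. Both lay between the spermatogonia libraries with TMM scaling, with log2 fold changes of -0.50 (SE 1.53) and -0.10 (SE 1.40). The 20A cluster, X:21392175-21431907, took 5.30% in y w, against 4.80% in bam and 5.31% in bgcn, a ratio of 0.998 to the higher of them and so just outside the rule. With TMM scaling it lay above both, with a log2 fold change of 0.47 (SE 1.33). At 38C, 2L:20104660-20118503 took 15.4% in y w, against 9.57% in bam and 21.5% in bgcn, and 2L:20148259-20227581 took 11.3% in y w, against 13.7% in bam and 13.5% in bgcn. None of these 5 clusters was called, and edgeR gave each an adjusted p of 0.986.

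The smallest ratios below both were found on 3L, X, 2RHet and U, mostly at low counts. 3L:19841657-19861753 had 9 reads in y w, against 79 in bam and 92 in bgcn, and 3L:24467284-24502317 had 21 reads in y w, against 218 in bam and 177 in bgcn. Their log2 fold changes were -2.25 (SE 0.91) and -2.22 (SE 0.87), with edgeR adjusted p-values of 0.203 and 0.187. The most abundant of this group was X:11089529-11095706, with 1.03% in y w, against 2.83% in bam and 3.18% in bgcn, and with 0.0602% in can and 0.808% in sa (log2 fold change -1.14, SE 1.08, edgeR adjusted p = 0.755). The 5 others named below both were U:923516-964236, U:2074759-2097753, U:1798246-1833539, 3L:23630899-23671051 and 2RHet:1599018-1643957, with 6 to 26 reads each in y w.

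Some clusters were high in bam alone among the libraries. One of these, XHet:170080-204036, named here after its values were seen, took 0.142% in y w, against 4.60% in bam and 0.196% in bgcn, with 0.102% in can and 0.129% in sa. Its y w interval of 0.0925% to 0.207% overlapped that of bgcn, 0.151% to 0.250%, so its place below both rests on counts that cannot separate y w from bgcn. Its log2 fold change was -3.19 (SE 1.04, edgeR adjusted p = 0.0693), and it was called lower with library totals, with the authors' factors and without the bgcn library.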

How the data were processed

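Small RNA libraries were made from dissected testes, as the labels' protocols describe. Bowtie 1 and DESeq2 are listed in the submitters' processing notes, which state no role for them. No source used here gives the genome build, the read lengths kept or the handling of reads that match several features. The authors deposited raw read counts and a normalised signal for each of 117 transposons and 99 piRNA clusters, 1 pair of tables per library. The deposited signal is the raw count multiplied by a factor of the library (1.3606 in y w, 0.936 in bam and 0.8583 in bgcn), whose basis is not given. The bgcn cluster sheet also carries stray spreadsheet values below its features, a mix entered as other in the unit record and not used. The heterozygotes come from a combined table of 86 elements, whose deposited signal was whole multiples of 1 step per library for 100.0% of elements (tolerance 0.001), and reads were worked back from it.

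From the counts, shares of each table's total were computed with 95% exact binomial intervals (scipy 1.17.1). Features with at least 30 reads over y w, bam and bgcn were tested, which kept 117 transposons and 99 clusters. edgeR 4.0.16 in R 4.3.3 fitted the quasi-likelihood model with TMM scaling to y w (n = 1), spermatogonia (bam and bgcn, n = 2) and spermatocyte (can and sa, n = 2) libraries, with Benjamini-Hochberg adjustment over all features of a table, two-sided, at 0.05. The SE printed beside a log2 fold change was worked back from the same edgeR test. It is the size of the fold change over the square root of the test's F statistic, not a separate estimate. The estimated spread between libraries (biological coefficient of variation) came to 0.576 in the transposon fit and 0.48 in the cluster fit. The TMM factor of bam was 1.84 for clusters, against 0.719 to 0.994 in the other libraries. Alternatives were library totals, the authors' factors, DESeq2 1.42.0, other filters on low counts, a fit on 3 libraries and leaving out each library. No permutation test of 1 library against 2 can reach 0.05. Named features were those called, the 8 largest and 8 smallest ratios to the nearer spermatogonia library (at least 100 reads for transposons and 50 for clusters), the 5 most abundant, and fixed telomeric, ribosomal and textbook cluster members. The members, lists and tests were chosen with earlier results of these data known. The fitting code was tested on simulated data as a check of the code alone, and a feature that was not called is not shown to be alike in the groups. No sequences of elements or clusters are printed, since none were at hand.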

Additional observations from a re-analysis of the deposited data

How the results depend on the processing

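edgeR called 4 transposons, all higher, and 0 with the authors' factors, 0 with DESeq2, 2 on y w, bam and bgcn alone, and 0 to 6 when 1 library was left out (0 without can, 6 without bgcn). It called 1 cluster, against 3 with library totals, 2 with the authors' factors, 0 on the 3 libraries alone and 0 to 4 when 1 library was left out. By position, TMM scaling gave 39 transposons above and 38 below, and 35 clusters above. Requiring a 2-fold gap left 36 transposons (10 above, 26 below) and 25 clusters (10 above, 15 below). With 1 spermatogonia library left out, 40 to 41 transposons lay above and 76 to 77 below, and 28 to 47 clusters above and 52 to 71 below. Of 47 named features, 36 kept their direction under all 10 alternatives. The log2 fold change reversed for HeT-A (-0.49 with library totals, -0.48 with the authors' factors, -0.10 with DESeq2, -0.01 with another filter), TART-B (-0.41, -0.42 and -0.03 in the first 3 of these), roo (0.12 on the 3 libraries) and the 38C clusters (-0.01 and -0.03 for 2L:20104660-20118503, -0.26 and -0.19 for 2L:20148259-20227581, with library totals and the authors' factors). With 1 library left out, reversals occurred for Doc (-0.78 to 0.23), roo (-0.16 to 0.12), HeT-A (-0.71 to 1.52), TART-A (-0.82 to 0.81), TART-B (-0.73 to 2.28), TART-C (-1.21 to 4.37), TAHRE (-1.32 to 0.79), 2L:20104660-20118503 (-0.16 to 1.63), 42AB (-0.38 to 0.81) and flamenco (-0.66 to 0.12). The cause was not tested.

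No paired analysis was possible, since each genotype has 1 library and the labels give no unit that links libraries across genotypes. Many clusters had under 100 reads in y w, which limits what their shares can show, and 1 y w library leaves its own spread unmeasured.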
